A study of Sus scrofa with 37 samples.

Results

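INS (ENSSSCG00000033740), the gene that encodes insulin, was followed through RNA sequencing counts of pig islets and pig pancreas. It was taken as the row with that identifier in the count table of each tissue, and it is 1 of 25880 gene identifiers and the 1 identifier that carries the symbol INS. The study compared gene expression between organs of higher and lower islet density. For pancreas, parenchyma of the duodenal lobe (50 mg) was taken at retrieval, and islets were isolated, purified and kept free-floating in ME 199 medium for 7 days at 37 °C before RNA was extracted. Of 37 samples 35 had counts: the pancreas group held 8 libraries labelled High and 9 labelled Low, the islet group held 8 and 9, and for the islets of 12AS51 no density is given. No treatment, breed, age or sex is given in the sources used here, and how density was scored is not given either. Animal codes in the titles tie libraries of both tissues to 16 pigs. The density label was the same in both tissues in 11 of them, High in pancreas and Low in islets in 2, Low in pancreas and High in islets in 2, and missing in 1.

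Insulin is made in the beta cells of the islets as a preprohormone. It is folded in the endoplasmic reticulum with the help of chaperones and disulfide-forming enzymes, cleaved by the prohormone convertases and carboxypeptidase E, and stored with zinc in dense-core granules until glucose metabolism closes the potassium channel of the beta cell and calcium enters. Islets form a small part of the pancreas, most of which is acinar tissue that makes digestive enzymes, so INS in an organ piece is read against a large background of acinar RNA.

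The islet libraries held 3237653 to 6702589 gene counts. The 10 deeper pancreas libraries held 1855075 to 3922006 counts, and the other 7, called the shallow libraries here, held 265000 to 536014. All 7 shallow libraries were labelled Low, and the remaining Low libraries were those of animals 12FS161 and 15LS30. A level of 3 counts was worth at most 11.3 CPM (counts scaled to a column total of 1000000). The tissue labels were checked against 15 acinar genes found in the tables, which summed to 5.52 to 557 CPM in islets and 12747 to 288093 CPM in pancreas. CTRL, a member of that list, was at 0 counts in every library. A list of 17 pan-endocrine genes without hormones (granins, processing enzymes and endocrine transcription factors) summed to 6205 to 33500 CPM in islets and 155 to 6302 CPM in pancreas. The lowest islet sum was that of 12AS51 and the highest pancreas sum that of 15LS30; without them the ranges were 18743 to 33500 and 155 to 1183 CPM. In the islets of 12AS51 the 10 most abundant genes took 87.8% of counts, against 21.8% to 52.3% in the other islet libraries. There ENSSSCG00000018061 alone took 43.5% and ENSSSCG00000018063 31.1%, against at most 25.7% and 12.3% in the other islet libraries. In the shallow pancreas libraries they took 9.30% to 13.1% and 13.6% to 22.2%, and in the deeper ones at most 9.94% and 8.19%. The totals behind CPM include both.

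INS was among the most abundant transcripts of the islets, and it took at most 0.78% of the counts of a pancreas library. In the 18 islet libraries its lowest, median and highest levels were 2086, 35725 and 61439.8 CPM. In the 17 pancreas libraries they were 67.5, 282 and 7803 CPM. The tissues overlapped through 1 library on each side, since the pancreas of 15LS30 stood above the islets of 12AS51 and below the other 17 islet libraries. Without these 2 libraries INS spanned 18851 to 61439.8 CPM in islets (n = 17) and 67.5 to 1680 CPM in pancreas (n = 16), a gap of more than 10-fold. By count, without correction for gene length, INS ranked first among all genes in the islets of 16CS60, 5th in those of 15AS28, 18th in those of 12AS51 and 3rd in the other islet libraries. In pancreas it ranked 16th in 15LS30 and between 45th and 368th in the others.

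**Figure D1:**
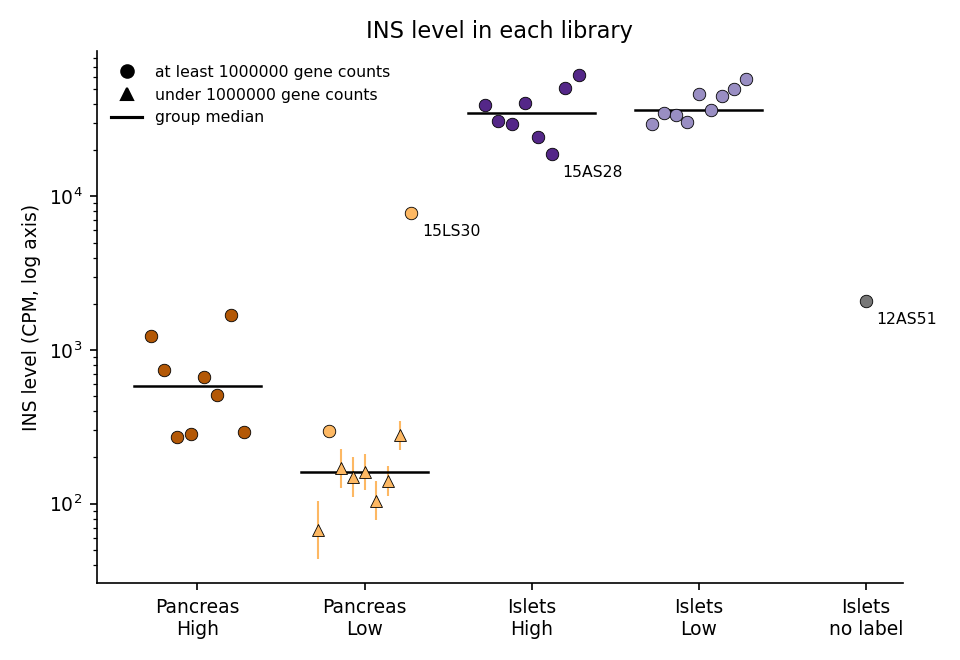
INS level in CPM on a log axis, 1 point per library, by tissue and density label. Horizontal lines are group medians, vertical lines are 95% Wilson intervals (counting error only), and triangles are libraries under 1000000 gene counts. The pancreas of 15LS30, at 7803 CPM, stands above every other pancreas library, and the islets of 12AS51, at 2086 CPM, below every other islet library.

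Between tissues, INS was higher in islets by 5.08 on the log2 scale (SE 0.52, adjusted p = 3.95e-11, Benjamini-Hochberg over 12339 genes, edgeR's quasi-likelihood test, 18 islet against 17 pancreas libraries). Across all tested genes, 31.1% were called higher and 31.5% lower in islets, with a median log2 fold change of −0.01. The change of INS was the 7th largest increase of the 12339. Without the pancreas of 15LS30 it was 5.77. With the animal as a replicate block, over the 16 animals with both tissues, it was 6.78 (SE 0.54, adjusted p = 1.60e-10). Limited to the 10 deeper pancreas libraries it was 4.45 (SE 0.51, adjusted p = 2.53e-09). In bulk tissue, fewer cells of a type and less RNA per cell cannot be told apart. All islets were isolated and cultured for 7 days, and all pancreas pieces were taken at retrieval. Tissue therefore cannot be told apart from isolation and culture in any comparison of islets with pancreas here. Markers of other cell types moved with tissue as well: the duct sum was 14.3 to 356 CPM in islets and 422 to 4068 CPM in pancreas, and the myeloid sum 5.07 to 38.1 and 38.5 to 201 CPM. Their part in the INS difference was not tested.

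Within animals, INS was higher in the islets of all 16 pigs. The mean difference was 6.78 on the log2 scale, a 110.3-fold geometric mean (two-sided sign-flip permutation test over all 65536 sign patterns, p = 3.05e-05, the smallest they can give). The fold ranged from 2.82 in 12AS51 to 600.0 in 12FS135, with a median of 138. The low end was the animal whose islets had 2086 CPM, and the next lowest was 31.6-fold in 11KS28. The high end was the pancreas with the fewest INS reads, 20 counts among 296327, where the Wilson 95% interval of the level is 43.7 to 104 CPM. In the 7 animals with a shallow pancreas library the fold was 161.8 to 600.0, and in the other 9 it was 2.82 to 198. Only 16IS5 (198) of those 9 overlapped the shallow set, and the other 8 reached at most 114, so the fold was nearly separated by depth. The part of depth in the fold was not tested. The INS level of the pancreas did not track that of the islets of the same animal (Pearson r = −0.13, permutation p = 0.620; Spearman rho = 0.15, permutation p = 0.572; n = 16; r = 0.18 without the 2 animals farthest from the median).

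INS was also set against the other islet hormone genes, which needs no library total. These are GCG, the glucagon gene of alpha cells, SST, the somatostatin gene of delta cells, and PPY, the pancreatic polypeptide gene. INS took 53.3% to 91.4% of the counts of the 4 genes in islets (median 79.6%) and 35.8% to 82.7% in pancreas (median 68.2%). The share was higher in the islets of 14 of 16 animals. The lowest pancreas share was in 12FS133, where GCG counts outnumbered those of INS, and the lowest islet share was in 15AS28. The 2 libraries that stood apart by INS level had ordinary shares, with 79.3% in the pancreas of 15LS30 and 80.0% in the islets of 12AS51.

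**Figure D2:**
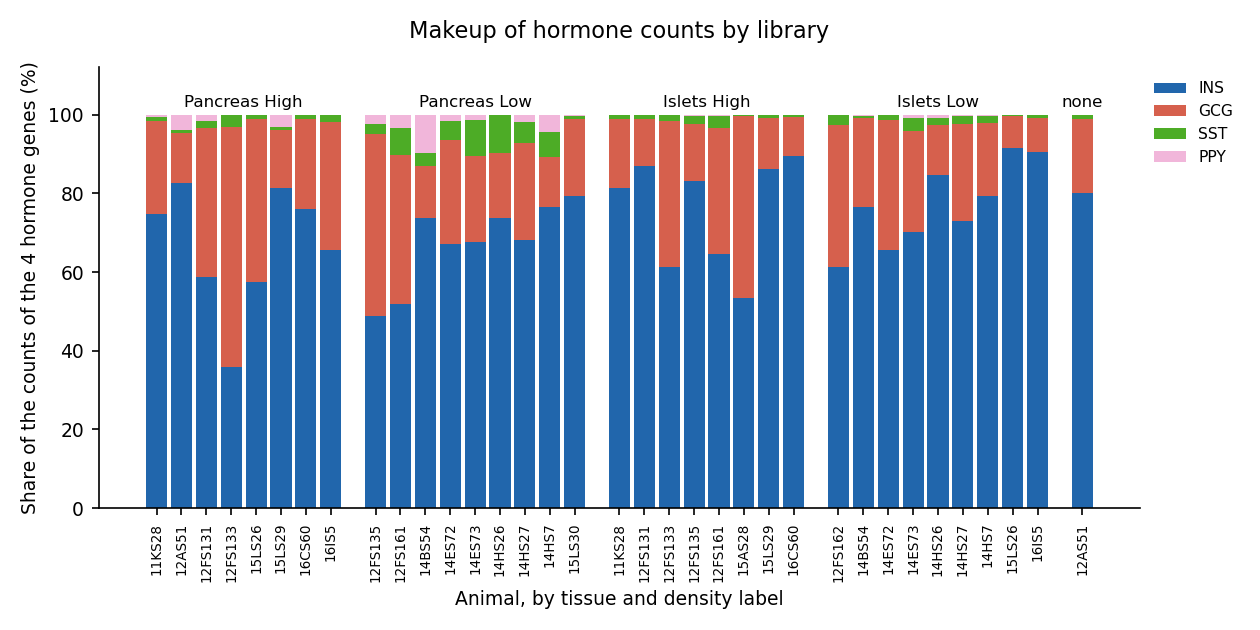
Share of INS, GCG, SST and PPY in the summed counts of these 4 hormone genes, in percent, 1 bar per library, by tissue and density label ("none" is 12AS51). INS holds 53.3% to 91.4% of the islet bars and 35.8% to 82.7% of the pancreas bars, and its low shares sit beside high GCG shares.

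In ratio to each of the other hormones INS was higher in islets than in the pancreas of the same animal. The mean log2 difference in the ratio (0.5 counts added to each gene) was 0.80 against GCG, with 11 of 16 animals in that direction (adjusted p = 0.0408), 1.56 against SST with 15 of 16 (adjusted p = 0.000732) and 2.64 against PPY with 12 of 16 (adjusted p = 0.00176; all by two-sided sign-flip permutation, adjusted over 18 ratio tests). The GCG call was lost when any 1 of 9 animals was left out, with adjusted p up to 0.0725. The PPY call was lost with the 9 animals of deeper pancreas libraries (2.19, adjusted p = 0.0625), and PPY was at 0 counts in 2 pancreas libraries. The ratio of INS to SST of an animal in pancreas and in islets had r = 0.77 and rho = 0.74 across 16 animals, a description computed after the values were seen; within the 9 animals of deeper libraries r was 0.72 and rho 0.35, and within the 7 of shallow ones r was 0.70 and rho 0.50.

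Against the summed pan-endocrine genes the ratio of INS was close in the 2 tissues. It was 0.834 to 2.69 in the islet libraries other than 12AS51 and 1.03 to 2.24 in the deeper pancreas libraries, while the islets of 12AS51 had 0.336 and the shallow libraries 0.270 to 0.904. The mean log2 difference within animals was 0.40 (11 of 16 higher in islets, adjusted p = 0.312, sign-flip permutation). It was 0.59 without 12AS51 (adjusted p = 0.0280) and −0.20 with the deeper pancreas libraries only (adjusted p = 0.777). Against 11 other beta cell genes the ratio was higher in islets by 2.85 (16 of 16, adjusted p = 0.000275). In the pancreas that sum is mostly ERO1B, an endoplasmic reticulum oxidase that acinar cells also use. ERO1B had a median of 194 CPM of a median sum of 268 CPM in the deeper libraries. The sum lacks IAPP, PDX1 and UCN3, which were not matched in the tables. Over all libraries its largest member was PCSK1, with 126342 counts, and MAFA had 247. Against the acinar sum the ratio was higher by 18.17 (16 of 16, adjusted p = 0.000275).

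**Figure D3:**
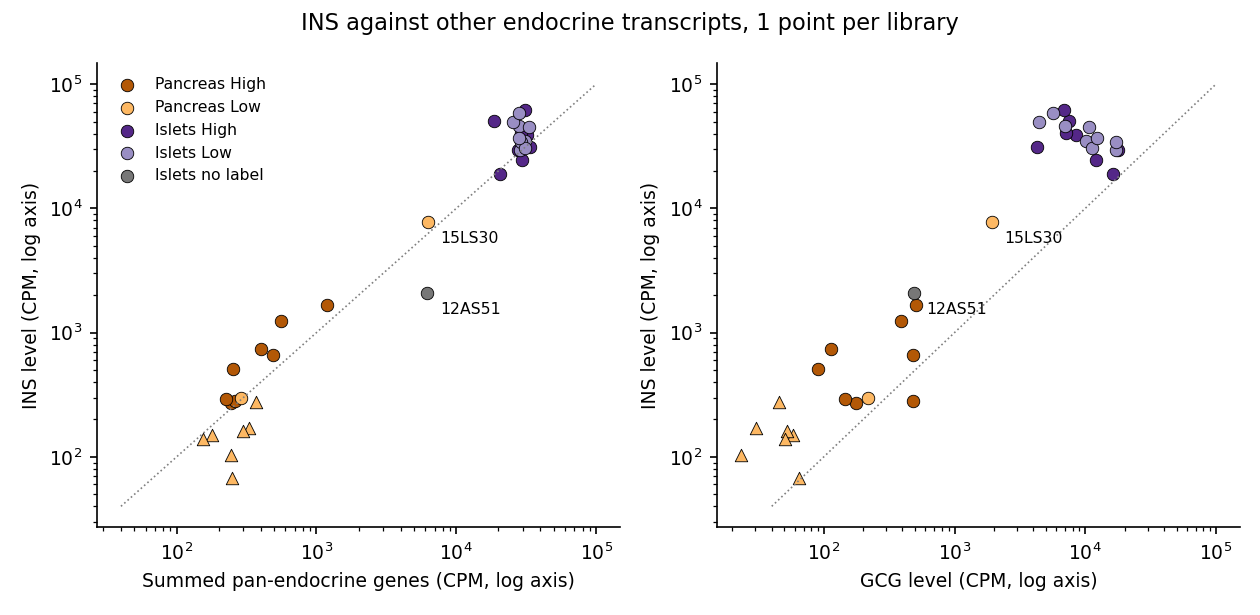
INS level against the summed level of 17 pan-endocrine genes (left) and against GCG (right), CPM on log axes, 1 point per library; triangles are pancreas libraries under 1000000 counts and the dotted line marks equal values. In the left panel 15LS30 lies near the line with the deeper pancreas libraries, at a ratio of 1.24, and the islets of 12AS51 lie below it, at 0.336.

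Across the 10 deeper pancreas libraries INS moved with the pan-endocrine sum (Pearson r = 0.97, permutation p = 5e-05, adjusted 0.00110; Spearman rho = 0.90, permutation p = 0.0007, adjusted 0.0154, over 22 relations in 3 sets of libraries and 1 set of animals). Without the 2 libraries farthest from the median of the sum r was 0.90, and without 15LS30 it was 0.92. These values share a library total. Across the 18 islet libraries no relation held in both measures. INS and the summed beta cell genes had r = 0.93 (permutation p = 0.00055, adjusted 0.00605) and rho = 0.47 (permutation p = 0.0505, adjusted 0.231), and r was 0.29 without the 2 libraries farthest from the median, so that relation rests on those libraries. INS and GCG had r = 0.63 (permutation p = 0.0562, adjusted 0.110) and rho = −0.44 (permutation p = 0.0703, adjusted 0.231). Without the 2 farthest libraries the r of INS with GCG was −0.80, and without 12AS51 it was −0.64. INS was thus lower where GCG was higher among the 17 other islet libraries, as a description.

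In the pancreas the question was whether INS differed with islet density. The lowest, median and highest levels were 273, 587 and 1680 CPM in the 8 High libraries and 67.5, 160.5 and 7803 CPM in the 9 Low libraries. All 8 High libraries were above the Low median, and none was above every Low library, because 15LS30 exceeded them all. Outside 15LS30 the highest Low library was 12FS161 with 297 CPM, which 5 of 8 High libraries exceeded. The fit gave a log2 fold change, High over Low, of −0.09 (SE 0.70, adjusted p = 0.930, edgeR's quasi-likelihood test with Benjamini-Hochberg), so INS did not pass the test. Of 10634 genes, 18.8% were called higher and 21.5% lower in High. On log2 CPM the difference was 1.26, a 2.40-fold geometric mean (exact two-sided permutation test over 24310 splits, p = 0.127).

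One library decided both values. Without the pancreas of 15LS30 INS was higher in High by 1.86 (SE 0.38, adjusted p = 0.000379, edgeR quasi-likelihood test, n = 8 and 8), and by 1.89 on log2 CPM (exact permutation p = 0.00109). That library held 14708 INS counts among 1884982, or 7803 CPM (Wilson 95% interval 7678 to 7929). Its GCG level (1925 CPM), SST level (90.7 CPM) and pan-endocrine sum (6302 CPM) were also the highest of the 17 pancreas libraries, and its acinar sum of 108448 CPM lay above the shallow libraries and below the High ones. DESeq2 gave 1.86 (adjusted p = 5.23e-06) with all 17 libraries, but its default handling of outlying counts replaced the 14708 INS counts of 15LS30 by 1047. With that replacement switched off DESeq2 gave −0.03, and it gave no adjusted p.

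**Figure D4:**
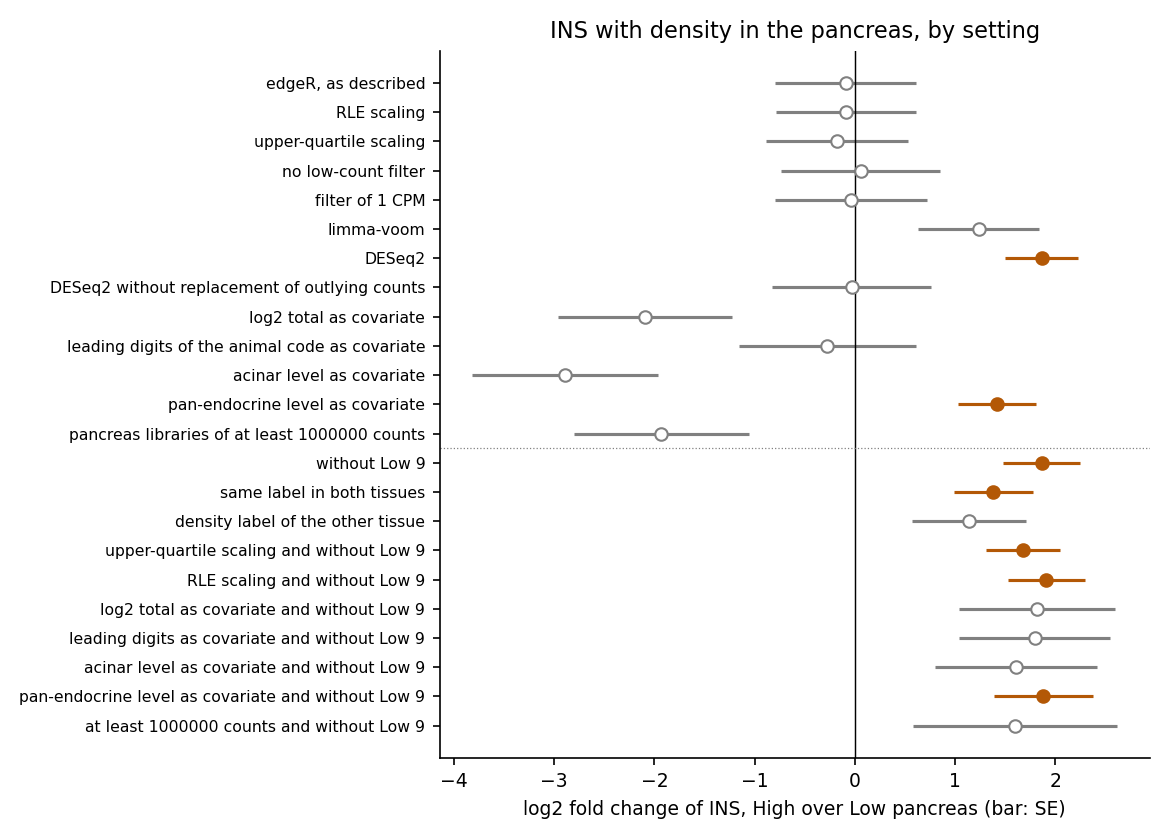
Log2 fold change of INS between High and Low pancreas under each setting, with its SE as a bar; filled points have an adjusted p under 0.05 and open points do not. Settings below the dotted line leave out 15LS30 (Low 9), among them both settings that use the labels of both tissues: all 10 lie between 1.14 and 1.91, and 5 of them pass, while the settings above it run from −2.89 to 1.86.

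The Low group also differed in depth and acinar content. The acinar sum was 182878 to 288093 CPM in High and 12747 to 130148 CPM in Low. In the fit of all libraries 14 of 14 tested acinar genes were higher in High (all genes 18.8% higher and 21.5% lower), with a median log2 fold change of 2.44. Among the deeper libraries 0 of 14 were called, as for all genes (0.0%), and their median was 1.34. With all libraries the difference in INS was −2.89 with the acinar sum as a covariate (SE 0.93, adjusted p = 0.644), −2.09 with the log2 library total (SE 0.87, adjusted p = 0.773) and −1.93 among the deeper libraries (SE 0.87, adjusted p = 0.547). Without 15LS30 the signs turned. With the acinar sum as a covariate the difference in INS was 1.61 (SE 0.81, adjusted p = 0.9997), and with the log2 library total it was 1.82 (SE 0.78, adjusted p = 0.893). Adding the first digits of each animal's code gave 1.79 (adjusted p = 0.101), and all 6 animals whose code begins with 14 were Low and shallow. Among deeper libraries without 15LS30 the only Low library left was 12FS161, and the difference was 1.60. Its SE of 1.02 rests on the High libraries alone and assumes that the lone Low library varies like them. Density, depth and acinar content cannot be told apart in these pancreas libraries.

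Ratios within the pancreas libraries do not use the library total. INS per SST was higher in High by 1.86 on the log2 scale (adjusted p = 0.0139), INS per pan-endocrine sum by 1.18 (adjusted p = 0.00176) and INS per acinar sum was lower by a log2 difference of −1.81 (adjusted p = 0.0210, all exact two-sided permutation tests adjusted over 18). INS per pan-endocrine sum was 1.09 to 2.24 in High and 0.270 to 1.24 in Low, so that 15LS30 was here the highest Low library but inside the High range. The ratios to GCG (−0.32, adjusted p = 0.673), PPY (2.60, adjusted p = 0.0505) and beta cell genes (0.65, adjusted p = 0.312) did not pass. Without 15LS30 the PPY ratio passed (3.04, adjusted p = 0.0196, exact permutation). Among deeper libraries the differences were 0.90 for SST, 0.41 for the pan-endocrine sum and −2.33 for the acinar sum (adjusted p = 0.673, 0.312 and 0.222, exact permutation). There 8 High face 2 Low, and with 45 splits no unadjusted p can be under 0.0222, so these p-values say little. In the shallow libraries SST rests on 1 to 7 counts and PPY on 0 to 6. In the High library of 16IS5 PPY was at 0 counts, so its ratio of INS to PPY rests on the 0.5 counts added. NEUROD1, NKX2-2, ISL1 and RFX6, members of the pan-endocrine list, were each at 0 in 1 shallow library, and the part of depth in these ratios was not tested.

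In islets INS did not differ with the islets' own density label. The lowest, median and highest levels were 18851, 35141 and 61439.8 CPM in the 8 High libraries and 29479, 36674 and 58387 CPM in the 9 Low libraries, and the ranges overlapped almost entirely. The log2 fold change was −0.05 (SE 0.19, adjusted p = 0.999, edgeR's quasi-likelihood test with Benjamini-Hochberg). On log2 CPM the difference was −0.19 (exact two-sided permutation test, p = 0.397). Of 12070 genes tested 0.0% were called, 257 had an unadjusted p under 0.05, and DESeq2 and limma-voom called 0 as well. The 6 ratios of INS to other genes differed by −0.15 to 0.70, and none passed (adjusted p = 0.312 to 0.865, exact permutation). Grouped by the pancreas label of the same animal, islet INS was higher in High by 0.30 (SE 0.17, adjusted p = 0.585, edgeR quasi-likelihood test). In simulated counts with these library sizes the islet fit called 42% of 2-fold and 100% of 4-fold changes. The pancreas fit called 30% and 95.9%. Every simulated gene had the same spread between libraries and no library stood apart, so these rates do not give the power for INS.

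The density difference itself was compared between tissues. The difference in islets minus that in pancreas was −0.06 for INS (SE 0.89, adjusted p = 0.970, Benjamini-Hochberg, interaction term of edgeR's quasi-likelihood test), and 39.9% of 14337 genes were called in either direction. Without 15LS30 it was −2.25 (SE 0.51, adjusted p = 0.000505). Without a block limma-voom gave −1.55 (SE 0.77, adjusted p = 0.101), and a random replicate block for the animal left it at −1.55 (SE 0.76, adjusted p = 0.0978). The order of INS levels was therefore islets of either label, then the islets of 12AS51, then High pancreas, then Low pancreas by median. Islets High and Low did not differ beyond their spread, and neither did pancreas High and Low in the edgeR fit of all libraries without covariates. With the pan-endocrine level as a covariate and all libraries kept, INS was higher in High (1.42, SE 0.39, adjusted p = 0.00358). The ratio of INS to that sum was 0.270 to 0.904 in the shallow libraries, all of them Low, and 1.03 to 2.24 in the deeper ones. Among the deeper libraries the log2 ratio was higher in High by 0.41 (adjusted p = 0.312, exact permutation). Density and depth cannot be told apart in this value.

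The genes of the insulin pathway were read next to INS, in lists written with earlier results of these data known. Of 3 tested islet hormone genes all 3 were higher in islets than in pancreas. GCG was at 490, 9303 and 17748 CPM in islets (lowest, median, highest) and 23.2, 114 and 1925 CPM in pancreas, and its log2 fold change was 4.75 (SE 0.49). SST changed by 4.55 (SE 0.36) and PPY by 2.97 (SE 0.48), and the highest adjusted p of the 3 was 1.01e-06. GHRL, the ghrelin gene, was below the filter, with at most 5 counts in any library. Among these, INS had the largest change. Of 13 tested regulators of the INS gene 10 were higher in islets and 0 lower (all genes 31.1% and 31.5%), with a median of 1.45. RFX6 (4.17, SE 0.35), NEUROD1 (4.05, SE 0.35) and PAX6 (4.05, SE 0.27), transcription factors of endocrine cells, led them, while HNF4A (−0.15, SE 0.14) and TCF3 (−0.34, SE 0.21) did not pass. MAFA, a beta cell activator of INS, was below the filter, with at most 25 counts in an islet library and 2 in a pancreas library.

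Of 15 genes of proinsulin folding, processing and granules 13 were higher in islets and 1 lower (all genes 31.1% and 31.5%), with a median log2 fold change of 4.86. The granins CHGB (5.79, SE 0.49), CHGA (5.30, SE 0.48) and VGF (5.23, SE 0.52) exceeded INS. HSPA5, the main chaperone of the endoplasmic reticulum, changed by 2.13 (SE 0.33), ERO1B did not pass (0.31, SE 0.35), and P4HB, a protein disulfide isomerase, was lower by a log2 fold change of −1.49 (SE 0.26). Of 12 genes of glucose sensing and secretion 10 were higher and 1 lower (all genes 31.1% and 31.5%), with a median of 2.60. G6PC2, a glucose-6-phosphatase of islets (4.48, SE 0.45), ABCC8, the sulfonylurea receptor of the potassium channel (3.92, SE 0.27), and SNAP25, a fusion protein of exocytosis (3.72, SE 0.32), were at the top. STX1A, its membrane partner, changed by 1.81 (SE 0.36), VAMP2 of the vesicle side did not pass (0.21, SE 0.17), and GLP1R, the incretin receptor, was lower at −0.65 (SE 0.23).

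**Figure D5:**
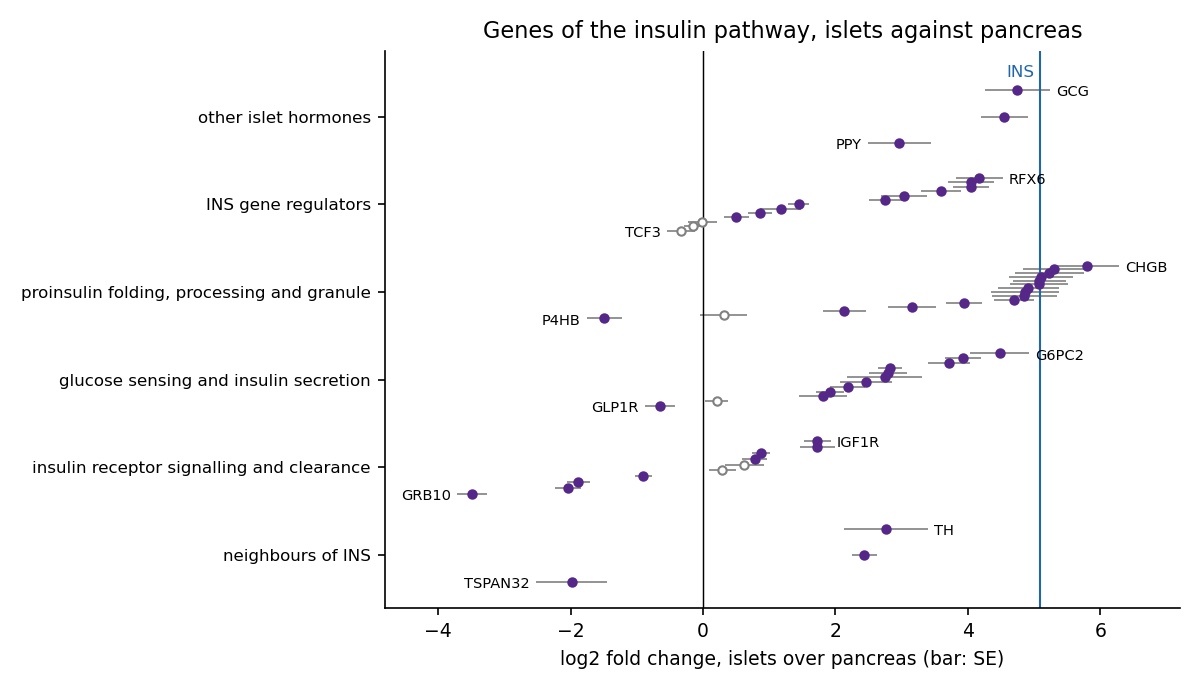
Log2 fold change of islets over pancreas for each tested gene of 6 lists around INS, with its SE as a bar; filled points have an adjusted p under 0.05, the blue line is INS at 5.08, and the first and last gene of each list are named. Processing and granule genes gather near the INS line, and genes of the insulin receptor pathway lie on both sides of 0.

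On the receiving side, 4 of 10 genes of insulin receptor signalling and clearance were higher in islets and 4 lower, with a median of 0.46, shares not far from the 31.1% and 31.5% of all genes. With the replicate block 6 of the 10 were higher and 3 lower, with a median of 0.98. Of all 20009 genes tested in that fit 5411 were higher and 6026 lower, with a median of −0.11. IGF1R, the receptor of insulin-like growth factor 1 (1.73, SE 0.20), IRS2, a receptor substrate (1.73, SE 0.26), and PTPN1, a phosphatase of the receptor (0.88, SE 0.14), were the highest. INSR, the insulin receptor, was lower at −1.89 (SE 0.17), with a median of 43.3 CPM in islets and 116 CPM in pancreas. PIK3R1, a regulatory subunit of phosphoinositide 3-kinase, was lower at −2.04 (SE 0.19) and GRB10, an inhibitory adaptor of the receptor, at −3.49 (SE 0.22). Leaving out the islets of 12AS51 and the pancreas of 15LS30 changed no count of the 5 lists above. Upper-quartile scaling moved the median of all genes to −0.14 and left 9 of 13 regulators called higher, beside 3351 of all 12339 genes. With the replicate block GLP1R did not pass (−0.26, adjusted p = 0.327), nor against the deeper pancreas libraries (−0.23, adjusted p = 0.250), and ERO1B was higher (1.38, adjusted p = 0.0453).

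With density in the pancreas, GCG did not pass with all libraries (0.49, SE 0.64, adjusted p = 0.559) and was higher in High without 15LS30 (1.97, SE 0.41, adjusted p = 0.000461). The log2 fold change of SST, High over Low, was −0.94 (SE 0.37, adjusted p = 0.0479), and it did not pass without 15LS30 (−0.55, adjusted p = 0.215). Of 10 regulators 1 was higher and 2 lower (all genes 18.8% and 21.5%), and 1 and 1 without that library. The counts of the processing list turned on 15LS30 as INS did. With all libraries 3 of 13 tested genes were higher in High and 3 lower (all genes 18.8% and 21.5%), among them HSPA5 (1.69, SE 0.44) and P4HB (1.51, SE 0.30), higher, and CHGB (−1.44, SE 0.56), lower. Without 15LS30, 7 of 13 were higher and 0 lower (all genes 24.0% and 23.9%). CHGA was then higher by 1.16 (adjusted p = 0.00422) and CHGB did not pass (0.09, adjusted p = 0.872). In the glucose sensing list, beside the same 18.8% and 21.5%, 1 of 8 was higher and 5 lower, and without 15LS30 1 of 7 and 5. In the receptor list 6 of 10 were higher and 1 lower in both fits (all genes 18.8% and 21.5%, and 24.0% and 23.9% without 15LS30), with INSR at 0.83 (SE 0.26) and GRB10 at 1.02 (SE 0.30). Among the deeper pancreas libraries none of these genes was called, as for all 13217 genes (0.0%, 1222 at an unadjusted p under 0.05). In islets 0 genes of these lists were called by density.

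INS lies in the RefSeq gene order of assembly Sscrofa11.1 between IGF2 and TH, and no neighbour in that table overlaps it; the deposited counts were made on another named build, so no coordinates are given. IGF2 itself was not matched in the tables. TH, tyrosine hydroxylase of catecholamine synthesis, was higher in islets (2.77, SE 0.63) at a median of 9.48 CPM, and it had at most 8 counts in a pancreas library. CD81, a tetraspanin, was higher too (2.44, SE 0.19), at 200 CPM by median in islets and 20.1 CPM in pancreas. TSPAN32, another tetraspanin, was lower (−1.98, SE 0.53) on at most 14 counts in a pancreas library, and it did not pass against the deeper pancreas libraries alone (0.076, adjusted p = 0.854). ASCL2 and TNNT3 were below the filter.

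The genes whose levels followed INS most closely were named by rank. Across the 18 islet libraries they were VAPB (Spearman rho = 0.90), EBNA1BP2 (0.89), SLC25A34 (0.88), TMEM223 (0.87) and NUP50 (0.87), and the lowest were HMGB2 (−0.66), COX2 (−0.65) and ARGLU1 (−0.63), where the median over 10291 genes was 0.26. VAPB spanned 7.31 to 155 CPM and COX2 3901 to 32261 CPM. Across the 10 deeper pancreas libraries they were CYP7B1 (0.95), CPLX2 (0.95), VAT1 (0.94), SLC24A2 (0.93) and EMB (0.93), and the lowest were ITPRIPL2 (−0.95), BCAT1 (−0.89) and OSGEP (−0.85), where the median over 9297 genes was 0.22. No gene stood in both sets of 5. CPLX2, a complexin of granule exocytosis and a member of the pan-endocrine list, had a median of 11.3 CPM and a maximum of 187 CPM, and its rho was 0.98 without 15LS30.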

How the data were processed

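RNA was sequenced from 37 samples, and the deposited values used here are whole-number read counts per Ensembl gene, made by the authors. FastQC, Subread, edgeR, HISAT2 2.0.2 and the build susScr3 appear in the submitters' processing notes. The strand setting and annotation release were not given in the sources used here, so antisense reads cannot be told apart. Groups follow the labels. The animal code and tissue in a column's name tied 35 columns to samples; 1 column matched no sample and was not used. For 2 islet samples the title says islets and the source name pancreas, and the title was followed. Of 25880 identifiers 14857 had a symbol. Each animal gave 1 library per tissue, by its code.

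CPM uses column totals. Genes were tested with edgeR 4.0.16 (R 4.3.3) by the robust quasi-likelihood test after filterByExpr and TMM scaling, and called at a two-sided adjusted p under 0.05 (Benjamini-Hochberg); DESeq2 1.42.0 and limma 3.58.1 (voom) were alternatives. Single values and ratios used permutation tests (scipy 1.17.1), with 100000 permutations where enumeration was too long. For edgeR the SE was derived as the absolute log2 fold change divided by the square root of the test's F statistic. DESeq2 and limma gave their own SE. The fits were tested on simulated data. Intervals and the floor of 3 counts cover counting error only.

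Libraries of both tissues were paired by the animal code in the titles. The deviations of 12339 genes from the tissue means had a median correlation of −0.03 within animals and 0.02 between animals, and 0 of 16 animals correlated best with themselves.

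The gene, the lists and the tests were chosen with earlier results of these data known. Genes named are INS, the detected members of the hormone and neighbour lists, the 3 highest and 3 lowest of each other pathway list by the tissue difference, and the genes with the highest (5) and lowest (3) rho with INS; MAFA, NKX2-2 and ISL1 were named after their values were seen. Some items that the rule covers are not reported here.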

Additional observations from a re-analysis of the deposited data

Results flagged for a closer look

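All 4 values that stood apart from their group came from 1 library, the pancreas of 15LS30 (Low replicate 9). In all, 32 groups of values were screened for a library far from the rest. Chance flags about 1 in 20 groups where values are normally spread. The 4 values share the INS count of that library, so they are not separate findings. The INS level of 15LS30 was 7803 CPM, and the other Low pancreas libraries held 67.5 to 297 CPM. Its log2 ratio of INS to SST was 6.42, against 2.81 to 4.19 in the others. Its log2 ratio of INS to the summed beta cell genes was 2.79, against −0.87 to 0.83. Its log2 ratio of INS to the summed acinar genes was −3.80, against −8.78 to −6.40. Its ratios of INS to GCG, PPY and the pan-endocrine sum, and its INS share of hormone counts, did not stand apart in this way. No cause was tested. The islets of this animal are labelled High, unlike its pancreas, but they have no counts and were not analysed here.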

How the results depend on the processing

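The higher INS level of islets kept its direction and its call in all 45 other settings (4.45 to 6.78, including the replicate block at 6.78). High against Low in pancreas changed sign or call with the setting. It was 1.86 with DESeq2, 1.24 with limma-voom, 0.059 with no low-count filter and 1.42 with the pan-endocrine covariate. With the density label of the other tissue it was 1.14, and with animals labelled alike in both tissues 1.38. DESeq2, the pan-endocrine covariate and the animals labelled alike passed. Both label settings left 15LS30 out, as its islets have no counts. Those islets are labelled High, so by label the other-tissue setting would place its pancreas in High. The difference was −2.89 with the acinar covariate, −2.09 with the library total and −1.93 with deeper libraries, none of them called. Without 15LS30 it was 1.68 with upper-quartile scaling, 1.91 with RLE scaling, 1.79 with leading code digits, 1.61 with the acinar covariate, 1.88 with the pan-endocrine covariate, 1.82 with the library total and 1.60 with deeper libraries; these 7 were added after the data were seen. Leaving out 1 library gave −0.30 to 1.86, and on log2 CPM 1.03 to 1.89. In islets the value was 0.30 with the pancreas label, 0.16 with animals labelled alike, 0.035 with leading code digits and −0.16 to 0.026 with 1 library left out. The tissue difference of the density difference was 0.033 with upper-quartile scaling, 0.98 with DESeq2, −2.28 (added after the data were seen) without both 15LS30 and the islets of 15AS28, and −2.25 to 0.16 with 1 library left out. DESeq2 there replaced the 15LS30 count by 33596. It was −1.55 in limma-voom both without and with the replicate block, and uncalled in both, so the pairing did not move it.

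Among ratios in deeper pancreas libraries, with and then without 15LS30, High against Low was 0.0068 and 0.79 for GCG, 0.90 and 2.63 for SST, and 0.41 and 0.54 for the pan-endocrine sum. It was −2.33 and 0.16 for the acinar sum, and −0.40 with 15LS30 for beta cell genes. Within animals it was 2.19 for PPY and −0.20 for the pan-endocrine sum. With 1 library or animal left out, GCG was −0.27 to 0.15 in islets and 0.66 to 0.90 within animals, PPY 2.13 to 3.04 in pancreas, the pan-endocrine sum 0.26 to 0.59 within animals, and in islets beta cell genes were −0.0046 to 0.18 and acinar genes −0.59 to 0.37. With TMM-scaled CPM, 3 of 22 rank correlations changed sign and no call changed: the pan-endocrine sum in islets (−0.49), and GCG (0.32) and library total (0.21) in shallow pancreas libraries. Depth limits the shallow libraries, where INS rests on 20 to 85 counts. Other than the replaced counts and the left-out library, the cause was not tested.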
